A study of Homo sapiens with 14 samples.

Results

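The 8 genes described here are INSIG1, HMGCS1, SREBF1, SREBF2, FASN, SCD, SQLE and ACLY, which encode enzymes and regulators of sterol and fatty acid synthesis. A region of the count table was assigned to a gene if it overlapped the gene's RefSeq span or lay within 10 kb of it, which gave 27 of 54942 regions, for 8 of the 16387 protein-coding genes with a region that close. The set was selected on measured values: INSIG1 had risen with the inhibitor in an earlier fit of the same 6 libraries. Every value of INSIG1 in this contrast is therefore a description, with no test, and counts of called regions leave its 3 regions out. The outermost assigned region lay 9025 bases from SREBF1 and held 0.143 ± 0.0636 normalised CPM with DMSO and 0.328 ± 0.0687 with OICR-9429 (SD, n = 3). The nearest region left out lay 10294 bases from SREBF2, at 2.70 ± 0.52 and 2.72 ± 0.0613.

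H3K4me2, the dimethylated form of lysine 4 on histone H3, was profiled by chromatin immunoprecipitation and sequencing in MDA-MB-231, a human triple negative breast cancer cell line. One group of 3 libraries came from cells given OICR-9429, a small molecule that antagonises the histone methyltransferase cofactor WDR5, and the other group of 3 came from cells given its solvent DMSO, both for 24 to 96 hours. All 6 are labelled as biological replicates of this 1 cell line, with no word on separate cultures, so p-values measure the spread between these libraries, and Drosophila chromatin was added at 5% before the antibody. Between 16483098 and 23509413 reads were counted per library. All 5 mesenchymal, basal-type markers had a region at a gene start or end (87.1 to 144 normalised CPM with DMSO), and so did all 5 luminal markers, at 11.7 to 76.2. These values are not divided by region length, so they do not compare the levels of the marker sets. Among markers of other cell types 1 of 4 hepatocyte, 1 of 4 adipocyte and 2 of 3 haematopoietic genes had one.

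Cells make cholesterol from acetyl-CoA by the mevalonate route and fatty acids from the same precursor by carboxylation and chain elongation. Both routes are switched on by the transcription factors SREBP-1 and SREBP-2, which are held in the membrane of the endoplasmic reticulum with the escort protein SCAP. When sterols are plentiful, INSIG proteins retain the complex there, and when they run low the factors are cut free in the Golgi and enter the nucleus. H3K4me2 marks active and poised promoters and enhancers, and WDR5 is a shared subunit of the complexes that write methylation on this residue.

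For 6 of the 8 genes RefSeq promoter sequences of GRCh38.p14, the same build as hg38, were at hand. SREBF2, INSIG1 and HMGCS1 are shown because they cover a regulator whose start region was called, the gene with the highest log2 fold change and a gene whose start region was not called. Each line gives the 250 bases before the start, 5′ to 3′ on the coding strand, and capitals mark matches to the letters searched on both strands, which were TCACNCCAC for the SREBP element, CCAAT for the NF-Y box, GGGCGG for the Sp1 box and CACGTG for the E-box.
SREBF2, plus strand, chr22:41832855-41833104: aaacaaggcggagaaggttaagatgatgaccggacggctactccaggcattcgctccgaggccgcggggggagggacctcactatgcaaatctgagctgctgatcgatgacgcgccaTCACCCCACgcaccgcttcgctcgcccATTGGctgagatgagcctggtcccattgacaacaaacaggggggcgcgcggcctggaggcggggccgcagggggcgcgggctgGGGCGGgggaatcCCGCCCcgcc
INSIG1, plus strand, chr7:155297628-155297877: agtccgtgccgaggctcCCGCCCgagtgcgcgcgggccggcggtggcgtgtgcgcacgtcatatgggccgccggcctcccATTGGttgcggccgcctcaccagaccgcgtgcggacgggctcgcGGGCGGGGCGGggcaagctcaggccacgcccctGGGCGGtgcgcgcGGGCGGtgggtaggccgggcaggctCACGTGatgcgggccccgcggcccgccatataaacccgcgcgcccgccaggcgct
HMGCS1, minus strand, chr5:43313413-43313662: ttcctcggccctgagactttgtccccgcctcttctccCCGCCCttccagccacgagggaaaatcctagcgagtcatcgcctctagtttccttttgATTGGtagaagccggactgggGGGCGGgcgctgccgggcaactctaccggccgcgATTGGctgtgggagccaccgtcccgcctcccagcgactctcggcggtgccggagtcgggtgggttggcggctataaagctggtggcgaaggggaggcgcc

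The SREBP element was found in SREBF2 only among the 6 genes with a sequence, 133 to 125 bases before the start. It is a rare string, present in 0.883% of the 35116 upstream windows of the RefSeq table. The NF-Y box, present in 32.0% of windows, was found once in SREBF2 and in INSIG1 and 2 times in the HMGCS1 window shown, and the SCD window and both ACLY windows held 2 each. SREBF1 had none in its 250 bases. The Sp1 box, present in 42.6% of windows, was found in the windows of all 6 genes, with 5 matches in INSIG1, of which a pair overlaps by 1 base. The E-box, present in 6.34% of windows, was found in INSIG1 only, 55 to 50 bases before the start. No match of one motif overlapped a match of another in the 3 windows printed. INSIG1 also had the window richest in G and C among these genes, at 78.4% with 41 CpG, where the median of all windows was 58.0% with 11. These matches describe letters in a window and were not tested as binding sites.

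At the starts of these genes H3K4me2 was present in all 6 libraries at levels that ranged from the lowest to the highest part of the genome's promoters. A start region is the strongest region within 1 kb of a RefSeq start, and for FASN and SQLE within 1 kb of either end of the gene. Levels are normalised CPM, which are read counts scaled to library size after TMM normalisation, and only the value per kb compares one gene with another. Among 11353 start regions the median DMSO level was 8.37 CPM per kb, with quartiles at 6.63 and 10.4. SCD, the desaturase that makes oleic acid, had 15.2 CPM per kb (percentile 95.7), and INSIG1 had 13.1 (percentile 90.7). SREBF1, which encodes SREBP-1, stood at 10.3 (percentile 73.9), the fatty acid synthase gene FASN at 8.55 (52.3) and HMGCS1, the HMG-CoA synthase of the mevalonate route, at 8.28 (48.7). SREBF2, which encodes SREBP-2, had 6.69 (26.0). The lowest were ACLY, which supplies cytosolic acetyl-CoA from citrate, at 4.35 (3.83), and SQLE, the squalene epoxidase of cholesterol synthesis, at 4.10 (2.85).

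ACLY was low per kb, and its region was long. The start regions of ACLY, SREBF1 and FASN measured 15749, 12755 and 10060 bases, at percentiles 97.6, 95.8 and 92.5 of length among start regions, whose median was 3859. That of SREBF2 measured 4055 bases and that of SQLE 4762. SCD, the densest of the 8, measured 6600 bases, and ACLY, the second lowest per kb, was the longest.

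**Figure D1:**
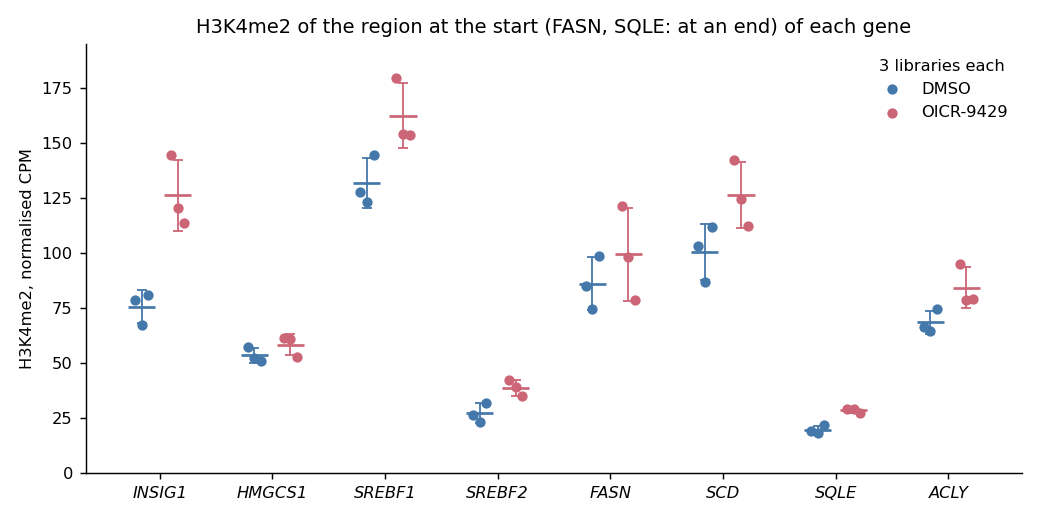
Normalised CPM of H3K4me2 in the region at the start (FASN and SQLE: at an end) of each of the 8 genes. Points are the 3 DMSO and 3 OICR-9429 libraries, and bars show the mean and SD. The groups do not overlap at INSIG1, SREBF1, SREBF2, SCD, SQLE and ACLY and overlap at HMGCS1 and FASN.

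With OICR-9429 the start regions of SREBF2 and SQLE rose and none of the 7 tested fell. All 7 had a log2 fold change above 0, with a median of 0.30, and in 5 the groups did not overlap. The share of all start regions without overlap was not counted, so the 5 have no reference. The calls and the median are no more than start regions showed as a class: over all genes 53.1% of start regions were called higher and 1.97% lower by edgeR at an adjusted p of 0.05, with a median log2 fold change of 0.38. Offsets that take out the trend of a library's counts with abundance (loess offsets) left 7.21% of start regions higher and 3.18% lower, with a median of 0.11. With loess offsets the 7 members had a median of -0.04 and only SQLE was called. A bulk profile cannot tell more mark per cell from more cells that carry it.

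SREBF2 (chromosome 22, region 41831858 to 41835912) is the master activator gene of cholesterol synthesis. Its start region held 26.5, 22.9 and 32.0 normalised CPM with DMSO and 42.1, 39.2 and 35.0 with OICR-9429. Each treated library lay above each DMSO library, though the lowest treated and the highest DMSO library were close. The log2 fold change was 0.52 (SE 0.14, adjusted p = 0.0161), and it was 0.25 with loess offsets (adjusted p = 0.1). The call was also lost without DMSO replicate 1, DMSO replicate 2 or OICR-9429 replicate 2, where the adjusted p reached at most 0.103. The region also touches CCDC134 and SREBF2-AS1, whose share of the mark cannot be told apart from that of SREBF2.

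SQLE (chromosome 8, region 124997375 to 125002136) encodes a rate-limiting enzyme that oxidises squalene. Its region had the fewest counts of the 8 start regions, 342 to 618 per library. It held 18.8, 18.2 and 21.6 normalised CPM with DMSO and 29.0, 28.9 and 27.3 with OICR-9429, so the groups were far apart compared with the spread inside each. The log2 fold change was 0.54 (SE 0.13, adjusted p = 0.00851), and with loess offsets 0.36 (adjusted p = 0.0371). Leaving out DMSO replicate 1 or DMSO replicate 2 ended the call, with adjusted p up to 0.0688. SQLE-DT, a divergent transcript, lies in the same region.

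INSIG1 (chromosome 7, region 155295574 to 155301339) encodes the sterol-responsive anchor that keeps SCAP in the endoplasmic reticulum. Its start region held 78.7, 67.3 and 80.9 normalised CPM with DMSO and 144.5, 120 and 114 with OICR-9429, a log2 fold change of 0.74. Because INSIG1 was picked for this rise, the values only say where it stands. Of the 11353 start regions 64, or 0.564%, had a higher log2 fold change, and with loess offsets, where INSIG1 stood at 0.40, 4.44% did. Without any 1 library, and under each of the other scalings and filters, the value lay between 0.40 and 0.81. A smaller region 6124 bases upstream stood at 0.41, and 1 inside the gene at -0.36 with 20 to 51 counts per library. The upstream region and the start region both touch INSIG1-DT.

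SREBF1, SCD and ACLY had log2 fold changes close to each other and did not pass the threshold, although in each the treated libraries lay above the DMSO libraries. SREBF1 (chromosome 17, region 17829676 to 17842430) held 128, 123 and 145 normalised CPM with DMSO and 180, 154 and 153 with OICR-9429, a log2 fold change of 0.30 (SE 0.12, adjusted p = 0.057). SCD (chromosome 10, region 100345423 to 100352022) held 103, 86.8 and 112 with DMSO and 142, 124 and 112 with OICR-9429, so that its highest DMSO library and its lowest treated library differed by under 1 CPM. Its log2 fold change was 0.33 (SE 0.13, adjusted p = 0.06). ACLY (chromosome 17, region 41904533 to 41920281) went from 66.3, 64.6 and 74.4 to 95.0, 78.6 and 79.1, a log2 fold change of 0.30 (SE 0.12, adjusted p = 0.0697). With loess offsets the 3 values were -0.04, -0.01 and -0.04. In each of these genes OICR-9429 replicate 1 was the highest library of all 6.

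At HMGCS1 and FASN the groups overlapped. HMGCS1 (chromosome 5, region 43309319 to 43315775) held 57.3, 52.1 and 51.0 normalised CPM with DMSO and 61.5, 60.8 and 52.7 with OICR-9429, a log2 fold change of 0.13 (SE 0.12, adjusted p = 0.438) that stood at -0.21 with loess offsets and at -0.08 with library totals. FASN (chromosome 17, region 82090742 to 82100801) held 84.8, 74.6 and 98.7 with DMSO and 121, 98.3 and 78.7 with OICR-9429. Its treated libraries spread more widely than those of any other member, and the third lay below 2 of the 3 DMSO libraries. The log2 fold change was 0.21 (SE 0.15, adjusted p = 0.296), and -0.13 with loess offsets.

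**Figure D2:**
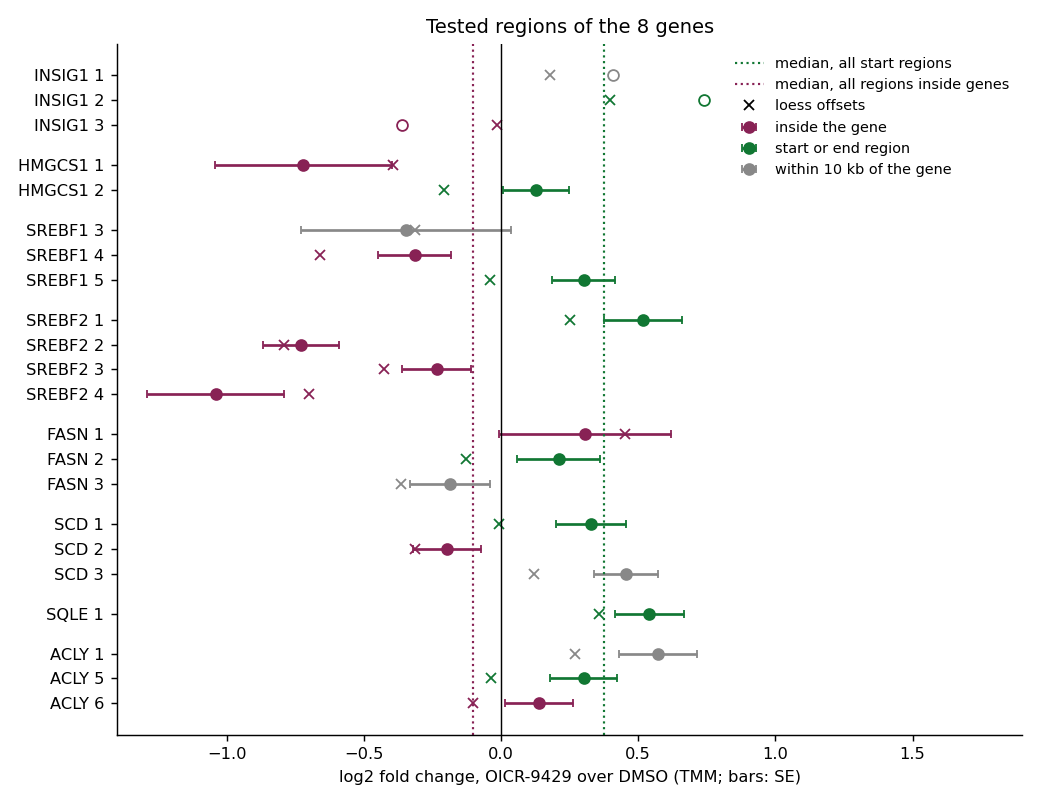
Log2 fold change, OICR-9429 over DMSO, of the 22 tested regions of the 8 genes, numbered along the chromosome within a gene. Filled points are TMM values with their SE as bars, open points are INSIG1 (no test), crosses are loess offsets, and dotted lines mark the medians of all start regions (0.38) and of all regions inside genes (-0.10). Start regions lie right of 0 with TMM, and the 3 regions inside SREBF2 and the 1 inside SREBF1 lie left of 0 under both scalings.

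Inside the genes the direction was the other way, above all in SREBF2. Of 8 tested regions inside the 7 genes 2 were called lower, both in SREBF2, and 0 higher. The median log2 fold change was -0.28, and in 5 of the 8 the treated libraries all lay below the DMSO libraries. The share of all regions inside genes without overlap was not counted. Over all genes 18.8% of regions inside genes were called lower and 5.75% higher, with a median of -0.10. These shares leave out regions within 1 kb of any gene's start, or of either end where no start was listed. Among the 7 genes only a gene's own start region was left out, so the sets are not defined alike. With loess offsets 3 of the 8 were lower and 0 higher, with a median of -0.41, where the shares over all genes were 12.3% and 5.00% and the median was -0.05. The remaining 3 regions inside a gene, all in ACLY and with at most 7 counts in any library, did not pass the count filter.

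The region 6130 to 10644 bases after the start of SREBF2 (chromosome 22, 41839235 to 41843749) fell, with 21.8, 19.4 and 16.3 normalised CPM with DMSO against 12.1, 11.5 and 11.0 with OICR-9429. The lowest DMSO library still lay well above the highest treated one. The log2 fold change was -0.73 (SE 0.14, adjusted p = 0.00337), -0.79 with loess offsets, and it passed the threshold under each of the 14 alternatives run, with values from -0.94 to -0.69. It was the only called region of the 7 genes for which that held. A weaker region 29093 to 29984 bases after the start held 3.49, 3.55 and 2.98 with DMSO and 1.08, 1.58 and 2.33 with OICR-9429, from 23 to 67 counts per library. It fell by 1.04 on the log2 scale (SE 0.25, adjusted p = 0.0098), a call lost only with loess offsets (adjusted p = 0.0684). Between them a region of 5324 bases went from 25.0, 25.9 and 26.4 to 19.7, 22.6 and 23.5, a log2 fold change of -0.23 (SE 0.13, adjusted p = 0.161) that was called with loess offsets (-0.43, adjusted p = 0.0276). With TMM, SREBF2 held a start region that rose and 2 downstream regions that fell. Of these calls only that of the fall nearest the start held under every alternative.

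In SREBF1 the signs with TMM were the same as in SREBF2, and neither region passed the threshold. With loess offsets the start region of SREBF1 stood at -0.04 and that of SREBF2 at 0.25. Next to its start region a domain of 14868 bases (chromosome 17, 17813287 to 17828154) covers the gene from 8832 bases after the start to near its end. It held 106, 108 and 115 normalised CPM with DMSO and 98.9, 94.9 and 70.2 with OICR-9429, with the third treated library far below the other two. The log2 fold change was -0.31 (SE 0.13, adjusted p = 0.0781), -0.18 without that library, -0.66 with loess offsets (adjusted p = 0.00247) and -0.51 with library totals (adjusted p = 0.0034). The only region inside HMGCS1, with 14 to 50 counts per library, stood at -0.72 (SE 0.32, adjusted p = 0.0954). The region inside FASN stood at 0.31 with 12 to 26 counts per library, and 1 at the end of SCD at -0.20 (adjusted p = 0.237). At ACLY a region of 2708 bases at the upstream edge of the RefSeq span, 9590 bases before the start used here, also touches ODAD4 and stood at 0.14.

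The domain inside SREBF1 also holds MIR33B, whose microRNA is made from an intron of SREBF1, while its relative MIR33A lies inside SREBF2. Both repress the cholesterol exporter ABCA1. Their mature sequences are shown because the SREBP genes carry them as passengers, with the seed, bases 2 to 8, in capitals.
hsa-miR-33b-5p: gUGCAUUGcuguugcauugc
hsa-miR-33a-5p: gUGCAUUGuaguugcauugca
The seed is the same in both, and over the 20 bases they share in length they differ at 2 positions. MIR33B (chromosome 17, 17813836 to 17813931) lies inside the SREBF1 domain described above, at its far end from the start. MIR33A (chromosome 22, 41900944 to 41901012) lies outside every region, 18411 bases from the nearest. The H3K4me2 counts therefore bear on the host domain of 1 of the 2 microRNAs, and say nothing of their transcripts.

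**Figure D3:**
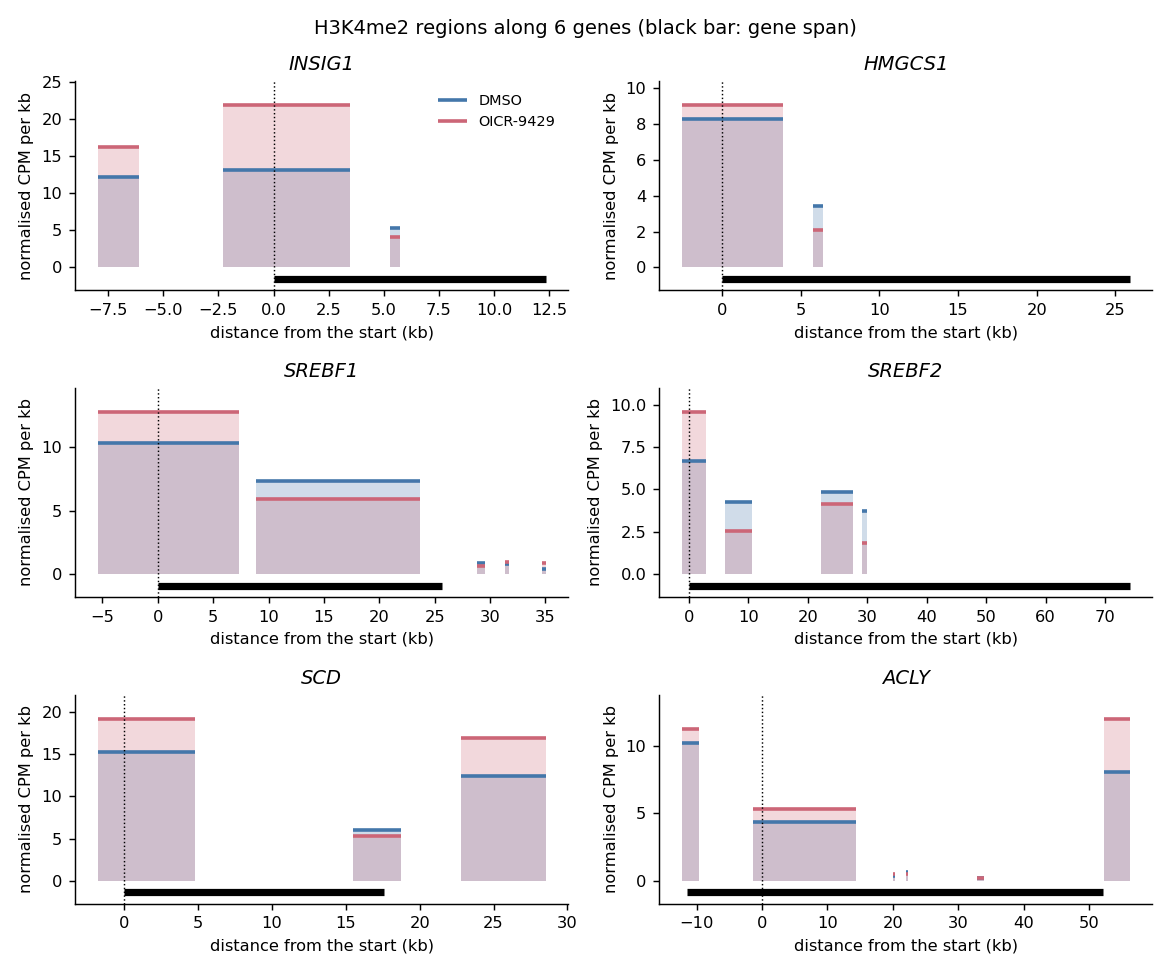
H3K4me2 per kb in each region of the 6 genes with a known start, against the distance from that start in kb along the direction of transcription. Horizontal lines are group means of 3 libraries, filled down to 0, and the black bar is the RefSeq gene span. The OICR-9429 line lies above the DMSO line at each start, and below it in the domain inside SREBF1 and in the 3 regions inside SREBF2.

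The share of a gene's counts that fell in its start region compares regions within a library, so it does not depend on a factor that scales a whole library. It uses raw counts, without the loess offsets, which differ between regions. The share was not computed for other genes. Over all genes 53.1% of start regions were called higher and 18.8% of regions inside genes lower by edgeR, so the values below have no reference. In SREBF2 the share was 34.5%, 31.9% and 41.2% with DMSO and 56.2%, 52.3% and 48.7% with OICR-9429, a difference of 16.5 percentage points. In SREBF1 it was 54.4%, 53.2% and 55.4% against 64.2%, 61.6% and 68.3%, a difference of 10.4 points. In both the groups did not overlap, and both differences held their sign without any 1 library and with narrower windows around the gene, at 14.6 to 19.2 and 8.57 to 11.9 points. FASN had 77.1% ± 2.52 and 81.4% ± 1.44 (SD, n = 3), again without overlap, but with only regions within 2 kb of its span the difference was -0.02 points. HMGCS1 had 96.0% ± 0.972 and 97.7% ± 1.08, and SCD 52.3% ± 1.65 and 52.1% ± 2.90. ACLY went the other way without overlap, 53.1% ± 0.596 to 51.5% ± 0.806, and the difference was 2.18 points when only regions overlapping its span counted. INSIG1, as a description, had 74.9% ± 4.13 and 79.7% ± 0.946.

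With 3 libraries against 3 the exact two-sided permutation test cannot give a p below 0.1. That value was reached by SREBF1, SREBF2, FASN and ACLY, while HMGCS1 had 0.2 and SCD 0.9 in the same exact test. Adjusted over the 6 genes tested, the permutation p values were 0.15, 0.24 and 0.9. No difference in share could pass the threshold in this exact test.

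**Figure D4:**
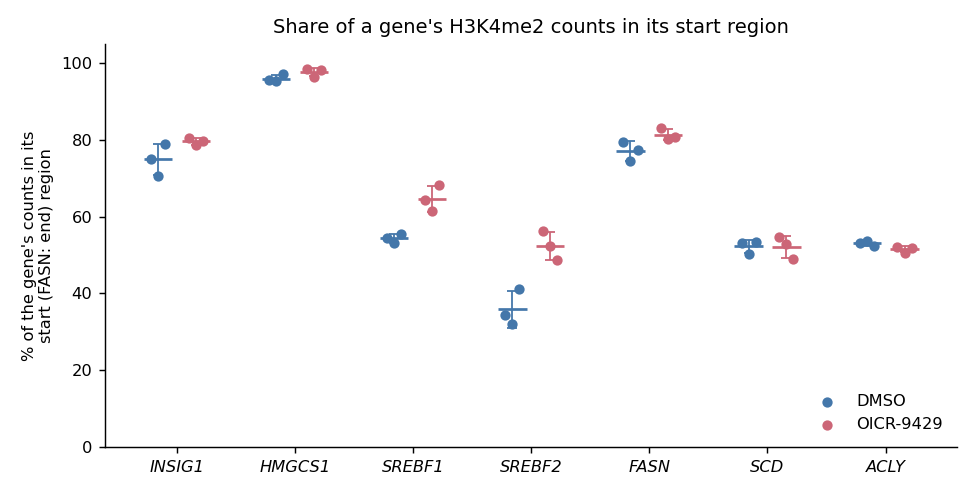
Percent of a gene's H3K4me2 counts that lie in its start region (FASN: region at an end), for the 7 genes with 2 or more regions. Points are libraries, with mean and SD over 3. The groups are apart in SREBF1 and SREBF2, where OICR-9429 lies higher, and near each other in SCD and ACLY.

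Summed over all regions of a gene and scaled with TMM, SCD, SQLE and ACLY rose, and the SREBP genes did not pass the threshold. SQLE has 1 region, so its sum holds the same counts as its region above and is not a second result. SREBF2 held 75.4 ± 3.14 normalised CPM with DMSO and 73.9 ± 1.82 with OICR-9429 (SD, n = 3), a log2 fold change of -0.03 (SE 0.10, adjusted p = 0.818). It was called lower with loess offsets (-0.34, adjusted p = 0.0154) and with library totals (-0.23, adjusted p = 0.0389). SREBF1 stood at 0.05 (SE 0.10, adjusted p = 0.665). The sums of HMGCS1 and FASN stood at 0.10 and 0.13 and did not pass either. The sums of SCD, SQLE and ACLY rose by 0.33, 0.54 and 0.34 (adjusted p = 0.021, 0.0112 and 0.0239), and that of INSIG1 stood at 0.65. These 3 of 7 compare with 47.7% of 15974 genes called higher and 3.13% lower, and with a median of 0.30. With loess offsets the 3 values were 0.06, 0.26 and 0.05 and none passed. All 3 calls were also lost without DMSO replicate 1 and without DMSO replicate 2. Of 16 alternatives run for the sums, 11 ended the call of ACLY, 8 that of SCD and 3 that of SQLE. The same SQLE counts stood at 0.36 as a region, where the loess trend was fitted to regions and not to summed genes. SCD and ACLY owed part of their sums to flanking regions that touch other genes: 1 at OLMALINC downstream of SCD rose by 0.45 (adjusted p = 0.0124), and 1 at KLHL11 beside ACLY by 0.57 (adjusted p = 0.0112). Neither flank call survived loess offsets or the removal of DMSO replicate 1 or 2, and with only regions overlapping the span the sums of SCD and ACLY did not pass.

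Over all their regions the 7 genes had 19 of 24 regions tested, with 4 higher and 2 lower, beside 17.0% higher and 14.0% lower among all 51156 tested regions. The 2 regions not named so far among those that passed the filter were a flank of FASN at CCDC57, at -0.19, and a flank of SREBF1 at RAI1, at -0.35 with 4 to 13 counts per library. Of the 5 regions that did not pass, 2 were flanks of SREBF1 and 3 lay inside ACLY, all with at most 9 counts in any library. Leaving out DMSO replicate 1 or DMSO replicate 2 took the number of higher regions to 0 each, and leaving out DMSO replicate 3 took it to 7. Over all tested regions the number higher went from 8709 to 1165, 1104 and 12192 in the same order. The number of lower regions of the 7 genes was 2 or 3 without any 1 library.

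In the wider pathway most start regions were higher, as they were over all genes. Lists of 67 genes were drawn up with the earlier result for this pathway known, and without INSIG1 they gave 63 tested start regions. Of these 43 were higher, which is 68.3%, and 0 were lower, beside 53.1% and 1.97% of all start regions. Without DMSO replicate 1, or without DMSO replicate 2, 5 were higher, and without OICR-9429 replicate 1 or 2 there were 21 and 23. Over all start regions the number higher fell too, from 6033 to 760, 650, 3073 and 3280 in the same order. The median log2 fold change of the start regions in the lists was 0.40 against 0.38 for all start regions. With loess offsets 5 were higher and 0 lower, beside 7.21% and 3.18% of all start regions, with a median of 0.10 against 0.11. Under both scalings the median of the lists lay close to that of all start regions.

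In cholesterol synthesis 14 of 22 start regions rose (63.6%, beside 53.1% of all start regions), with a median of 0.38, and 2 were called with loess offsets. HSD17B7, a sterol reductase gene, had 4.83, 4.83 and 5.53 normalised CPM with DMSO and 8.83, 8.20 and 7.63 with OICR-9429, a rise of 0.70 (adjusted p = 0.00688) that was also called with loess offsets (0.84, adjusted p = 0.0053). DHCR7, which makes the last step to cholesterol, and the lanosterol demethylase gene CYP51A1 rose by 0.53 each. The DHCR7 region is shared with NADSYN1. In fatty acid synthesis 11 of 17 rose (64.7%, beside the same 53.1%), with a median of 0.40, and 2 were called with loess offsets. FADS1, a desaturase gene that shares its start region with FADS2, rose by 0.63 (adjusted p = 0.00681). Its call held under each of the 14 alternatives, with values from 0.30 to 0.77. The elongase genes ELOVL6 and ELOVL5 rose by 0.57 and 0.51, and lost their calls with loess offsets. ACACA, the acetyl-CoA carboxylase that commits carbon to fatty acids, rose by 0.85 (adjusted p = 0.0246) from 2.19 ± 0.564 to 3.89 ± 1.35 normalised CPM (SD, n = 3), a weak region shared with TADA2A.

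Among genes that control SREBP 8 of 11 start regions rose (72.7%, beside 53.1% of all start regions), with a median of 0.43, and 0 were called with loess offsets. INSIG2, the second retention protein, had 28.0, 26.6 and 32.0 normalised CPM with DMSO and 40.6, 42.7 and 46.1 with OICR-9429, a rise of 0.58 (adjusted p = 0.00651) lost only with loess offsets (0.30, adjusted p = 0.0515). SPRING1, needed for SREBP processing, and the ubiquitin ligase gene RNF139 rose by 0.46 and 0.44. The SPRING1 region is shared with RNFT2. SCAP stood at 0.17 (adjusted p = 0.285) and at -0.13 with loess offsets. The escort of SREBP did not pass, while regions at both INSIG genes were higher, that of INSIG1 by selection. Among genes of sterol uptake, storage and export 10 of 13 rose (76.9%, beside the same 53.1%), with a median of 0.37, and 1 was called with loess offsets. ABCA1, the exporter that the microRNAs above repress, rose by 0.80 (adjusted p = 0.00193), from 35.5 ± 5.52 to 61.8 ± 6.61 normalised CPM (SD, n = 3). Its call held under each of the 14 alternatives, with values from 0.48 to 0.92. The HDL receptor gene SCARB1 rose by 0.63 and SOAT1, which esterifies cholesterol, by 0.47. THRSP and ABCG1 had no region. Among the called genes named here the calls of HSD17B7, FADS1, ACACA and ABCA1 held with loess offsets and the others did not. The calls of HSD17B7, DHCR7, ELOVL5, SPRING1, RNF139, SOAT1 and ACACA were lost without DMSO replicate 1 and without DMSO replicate 2, that of CYP51A1 without the second and that of ELOVL6 without the first. Over all start regions the number higher fell from 6033 to 760 without DMSO replicate 1 and to 650 without DMSO replicate 2. Without OICR-9429 replicate 1 the value of ACACA was 0.44 (adjusted p = 0.184) and that of RNF139 0.34 (adjusted p = 0.0613). With library totals these were 0.65 (adjusted p = 0.0724) and 0.24 (adjusted p = 0.114), and SPRING1 lost its call without OICR-9429 replicate 3 (adjusted p = 0.0511).

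**Figure D5:**
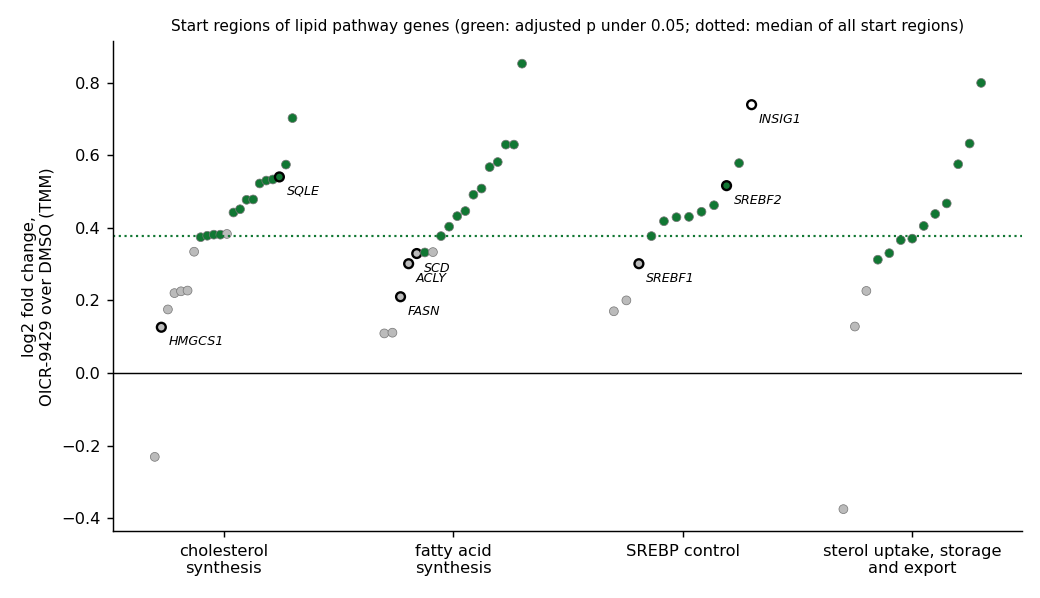
Log2 fold change, OICR-9429 over DMSO, of the start region of each tested gene in the 4 lists. Green points passed an adjusted p of 0.05, grey points did not, black rings mark the 8 genes (INSIG1 open, no test), genes that share a region have a point each, and the dotted line is the median of all start regions (0.38). HMGCS1, FASN, ACLY, SCD and SREBF1 lie below the dotted line, and SREBF2 and SQLE above it.

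The start regions most like that of INSIG1 over the 6 libraries were those of PYCR1, CXCL3, PLEKHO1, PFDN2 and WLS. Likeness was the root mean square difference of log2 normalised CPM after centring, among 5679 start regions with at least the median count, and it was 0.04 for PYCR1 and 0.05 for the other 4. PYCR1 held 44.5, 39.8 and 49.8 normalised CPM with DMSO and 84.6, 69.4 and 67.9 with OICR-9429. The 5 genes had log2 fold changes from 0.69 to 0.76. Values near the 0.74 of INSIG1 follow from picking them for likeness. None is in the 4 lists, which hold 64 of the 11353 tested start regions, so few list genes could appear among 5. The PFDN2 region also holds the start of NIT1.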

How the data were processed

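The builds dm6 and hg38 and the tools featureCounts, MACS2, Bowtie, deepTools and DESeq2 are named in the submitters' processing notes, and their settings are not given in the sources used. The table deposited by the authors gives raw counts of reads in 6 H3K4me2 libraries over 1 set of 54942 regions, and 99.9% of counts lay in tested regions. Input and untreated libraries were not analysed here, and no spike-in factor was used, so a shift shared by all regions cannot be seen. Scaling sets the centre of every fold change: the median over all tested regions was 0.03 with TMM and -0.17 with library totals.

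Regions were tested in R 4.3.3 with edgeR 4.0.16 (filterByExpr, TMM, glmQLFit with robust estimation, glmQLFTest, Benjamini-Hochberg over 51156 regions, threshold 0.05), 3 against 3 libraries, no covariate. Counts per gene were summed over its regions and tested alike. The fit was tested on simulated data. Alternatives were library totals, DESeq2 1.42.0 size factors and Wald test, loess offsets (limma 3.58.1, span 0.3), regions unfiltered, a minimum mean count of 50, a replicate block, narrower windows and each library left out. The others, TMM before filtering, either gene end for every pathway gene, and only genes with a listed start, were chosen after seeing the data. Spans, starts and sequences came from RefSeq (GRCh38.p14), and exons were not told apart from introns.

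The 8 genes, the lists and the tests were chosen with earlier results of these data known. Named were the 8 genes, the 3 other genes of smallest p per list, regions called lower, ACACA, SCAP and INSIG2, and the 5 start regions most like that of INSIG1. Some single genes of the lists are not reported here.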

Additional observations from a re-analysis of the deposited data

How the results depend on the processing

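With loess offsets 1 region of the 7 genes was higher in place of 4, 1 start region in place of 2, 5 pathway start regions in place of 43 and 0 summed genes in place of 3, and 1 summed gene, SREBF2, was lower. With library totals 6 regions were lower in place of 2, 21 pathway start regions were higher and 1 lower, and 1 summed gene was higher and 1 lower. A mean count of at least 50 left 1 summed gene higher, and counting only regions that overlap the span left 2 regions and 1 summed gene higher. Leaving out 1 library at a time gave 0 to 7 higher regions, 0 to 5 higher start regions, 5 to 49 higher pathway start regions and 0 to 3 higher summed genes. Over all genes it gave 650 to 8672 higher start regions. The cause of these changes was not tested. Over all regions TMM called 8709 higher and 7179 lower, library totals 3296 and 11986, and loess offsets 2794 and 4553.

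Directions turned as follows. With loess offsets the start regions of HMGCS1, SREBF1, FASN, SCD and ACLY stood at -0.209, -0.0392, -0.127, -0.00843 and -0.0373, SCAP at -0.127, the ACLY region beside ODAD4 at -0.102, and the sums of HMGCS1, SREBF1 and FASN at -0.228, -0.208 and -0.172. With library totals HMGCS1 stood at -0.0767, SCAP at -0.0291, the ACLY region at -0.0572 and the 3 sums at -0.103, -0.145 and -0.0648. The sum of HMGCS1 was -0.00644 with a minimum mean count of 50, and that of SREBF1 was -0.0495 there and -0.0167 with no count filter or with TMM before filtering. Without 1 library the sums ran from -0.00394 to 0.171 for HMGCS1, -0.0976 to 0.129 for SREBF1 and -0.0862 to 0.269 for FASN, the FASN end region from -0.0248 to 0.352 and the region inside FASN from -0.0624 to 0.443. The share in the start region turned to -0.0245 points for FASN and 4.55 for SCD with both narrower windows and to 2.18 for ACLY with the span alone, and it ran from -1.35 to 1.48 for SCD without 1 library.

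No pairing by replicate number was visible in the counts. Same-numbered libraries had correlations of -0.16, 0.18 and -0.19 in their deviations from the group means, and not every library correlated best with its own number. With 3 libraries per group these correlations cannot show whether cultures were run in pairs. With the replicate number as a block the 7 genes kept counts of 4 higher and 2 lower regions, 33 pathway start regions were higher and 2 summed genes were higher, ACLY at 0.34 being lost.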
